A study of Mus musculus with 4 samples.

Results

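The genes described here are 53 components of the Bmp and Tgf-beta signaling pathways, taken as a list of gene symbols that covers ligands, receptors, Smad proteins, secreted modulators, target genes and proteins that hold latent Tgf-beta in the matrix. No measured value entered the rule that selected them, although the list was chosen with earlier results of these data known. All 53 were present among the 21352 genes with a transcript entry of at least 200 bases, and 32 of them were among the 7399 genes that reached 5 FPKM in at least 1 embryo and were tested. FPKM expresses a transcript's fragments relative to its length in kilobases and to the fragments mapped in the library. Levels were compared in palatal mesenchyme cells of mouse embryos at E13.5 (embryonic day 13.5), with and without the forkhead transcription factor Foxf2. The mutant group consisted of 2 Foxf2-/- embryos, and the controls were 1 embryo wildtype for Foxf2 (Foxf2+/+) and 1 Foxf2+/- embryo. The controls were littermates of the mutants, and all 4 embryos were of mixed background and carried the Osr2RFP/+ reporter, a knock-in that makes Osr2-expressing cells red fluorescent and leaves controls as well as mutants with 1 modified Osr2 allele. Palatal shelves of each embryo were dissected and dissociated, and the RFP+ cells were sorted and sequenced as a separate library. Foxf2 was missing from every tissue of the mutants and from the start of development, and the Foxf2+/- control had itself lost 1 copy.

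Ligands of the Bmp and Tgf-beta families bind as dimers to complexes of type I and type II receptor kinases at the cell surface. Bmp receptors phosphorylate Smad1, Smad5 and Smad9, Tgf-beta and activin receptors phosphorylate Smad2 and Smad3, and both classes enter the nucleus with Smad4, while Smad6 and Smad7 feed back on the receptors. In the growing palatal shelves Bmp signals between mesenchyme and epithelium are known for their part in proliferation and patterning, and Tgfb3 for its part in the fusion of the shelves.

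The region upstream of the transcription start is shown for Tgfb2, Grem1 and Inhba, which had among the largest differences between Foxf2-/- and control embryos of the tested members with an entry in the promoter table. The sequences are RefSeq reference sequences of the build GRCm38.p6 and run 5′ to 3′ over the 250 bases before the start. They lie at chr1:186705990-186706239 on the minus strand for Tgfb2, at chr2:113758649-113758898 on the minus strand for Grem1 and at chr13:16011601-16011850 on the plus strand for Inhba. Capitals mark CAGAC, the core of the Smad-binding element, and GGCGCC, a GC-rich sequence bound by Smads of the Bmp branch, each on either strand. GGCGCC is its own reverse complement, and the motifs searched can overlap only at their ends.
Tgfb2: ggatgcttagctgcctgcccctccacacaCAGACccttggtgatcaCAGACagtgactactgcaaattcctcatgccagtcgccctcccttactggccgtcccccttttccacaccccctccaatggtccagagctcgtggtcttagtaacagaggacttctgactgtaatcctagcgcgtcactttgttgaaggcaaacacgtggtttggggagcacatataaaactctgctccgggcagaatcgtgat
Grem1: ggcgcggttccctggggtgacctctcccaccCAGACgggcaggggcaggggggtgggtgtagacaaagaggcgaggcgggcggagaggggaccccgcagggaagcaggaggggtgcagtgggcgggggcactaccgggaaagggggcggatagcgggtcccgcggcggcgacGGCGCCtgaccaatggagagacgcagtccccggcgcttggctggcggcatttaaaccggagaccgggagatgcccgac
Inhba: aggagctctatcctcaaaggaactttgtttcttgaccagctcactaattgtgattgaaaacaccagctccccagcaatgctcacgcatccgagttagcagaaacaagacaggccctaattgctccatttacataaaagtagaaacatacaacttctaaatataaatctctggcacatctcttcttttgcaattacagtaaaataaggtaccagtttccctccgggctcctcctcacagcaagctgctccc
CAGAC occurred at 2 places upstream of Tgfb2 and at 1 place upstream of Grem1, which also held 1 copy of GGCGCC, and the Inhba window held neither. The table had windows for 37 of the 53 members, some with more than 1 start, which gave 45 windows. CAGAC was present in 20 of these 45 windows (44.4%) and in 42.2% of all 32851 windows of the table, and GGCGCC in 12 (26.7%) and 9.59%. TGTTTA, the core of the forkhead recognition sequence, was found on neither strand in any of the 45 windows and in 12% of all windows. These matches describe letters in a short window and carry no information about binding.

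Foxf2 itself checked the genotype labels. It measured 85.4 FPKM in the Foxf2+/+, 45.1 in the Foxf2+/- and 1.41 and 2.28 in the Foxf2-/- embryos (limma, log2 difference -5.03, adjusted p = 0.000409). Osr2, the gene that carries the reporter, lay between 129 and 147 FPKM in the 4 libraries. The 12 palatal mesenchyme markers each reached 1 FPKM in at least 1 embryo, and their summed level was between 1315 and 1552 FPKM. Of the 12, 6 were lower (background 38.7% of all genes tested) and 1 was higher (background 8.66%) in both mutants than in both controls. Of these, Twist1 had 133 and 125 FPKM in the controls against 103 and 107 in the mutants, and Shox2 had 113.5 and 73.4 FPKM against 47.7 and 63.7. Markers of other cells were low but not level between the libraries. In the order Foxf2+/+, Foxf2+/-, Foxf2-/- embryo 1 and Foxf2-/- embryo 2, the 10 epithelial markers summed to 8.28, 9.34, 9.88 and 11.1 FPKM. Of these, 5 of 10 were higher in both mutants, beside 12.8% of genes from 1 to under 5 FPKM, a range that 4 of the 10 did not reach. The 8 endothelial markers, all under 1 FPKM in every embryo, summed to 0.869, 1.26, 1.75 and 2.30, and the 9 red blood cell genes to 297, 1837, 1597 and 4375. The 8 macrophage markers summed to between 17.2 and 27.3 FPKM and the 8 neural markers to between 3.63 and 7.65, both sums with overlapping groups. Of single macrophage markers, Csf1r was higher (background 12.8% of genes from 1 to under 5 FPKM) and Aif1, under 1 FPKM, lower in both mutants. Of the neural markers, 2 were higher in both mutants, Sox10 and Foxd3, each under 1 FPKM, and 0 were lower. The 8 skeletal muscle markers summed to 2.22 and 2.55 in the controls and 1.28 and 1.22 in the mutants. In both mutants, 4 of 8 endothelial markers were higher and 0 lower, and 4 of 8 skeletal muscle markers were lower and 0 higher. No background share was computed for genes at such low levels. Cldn5 and Myog, 1 marker of each of these lists, were at 0 in all embryos, which does not show that such cells were absent. The part of these marker levels, mesenchymal or other, in the differences given here was not tested. The number of reads per library is unknown, but mean coverage per FPKM, which follows depth, was 1.36, 1.61, 1.39 and 1.55 in the same order. In bulk RNA, fewer cells expressing a gene and less RNA per cell cannot be told apart.

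The pathway was broadly expressed in the sorted cells. Where values are paired, the Foxf2+/+ embryo comes before the Foxf2+/- embryo among the controls, and Foxf2-/- embryo 1 before embryo 2 among the mutants. As the plot of all members by role shows, mean levels over the 4 embryos ranged from 212 FPKM for Fstl1 to 0.0511 FPKM for Ltbp2. The next highest were Inhba at 112, Sostdc1 at 87.2, Twsg1 at 74.1 and Id3 at 73.7 FPKM, so that secreted factors and target genes held the top of the list. Of the 21 members under 5 FPKM in every embryo, 13 reached 1 FPKM in some embryo and 8 did not, among them the ligands Gdf5, Gdf6 and Inhbb, the receptor Bmpr1b and the antagonist Nog. All 4 target genes passed the filter, in comparison with 4 of 10 Bmp and Gdf ligands and 4 of 11 modulators. Id4 passed it through the Foxf2+/+ embryo alone, at 6.03 FPKM.

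**Figure D1:**
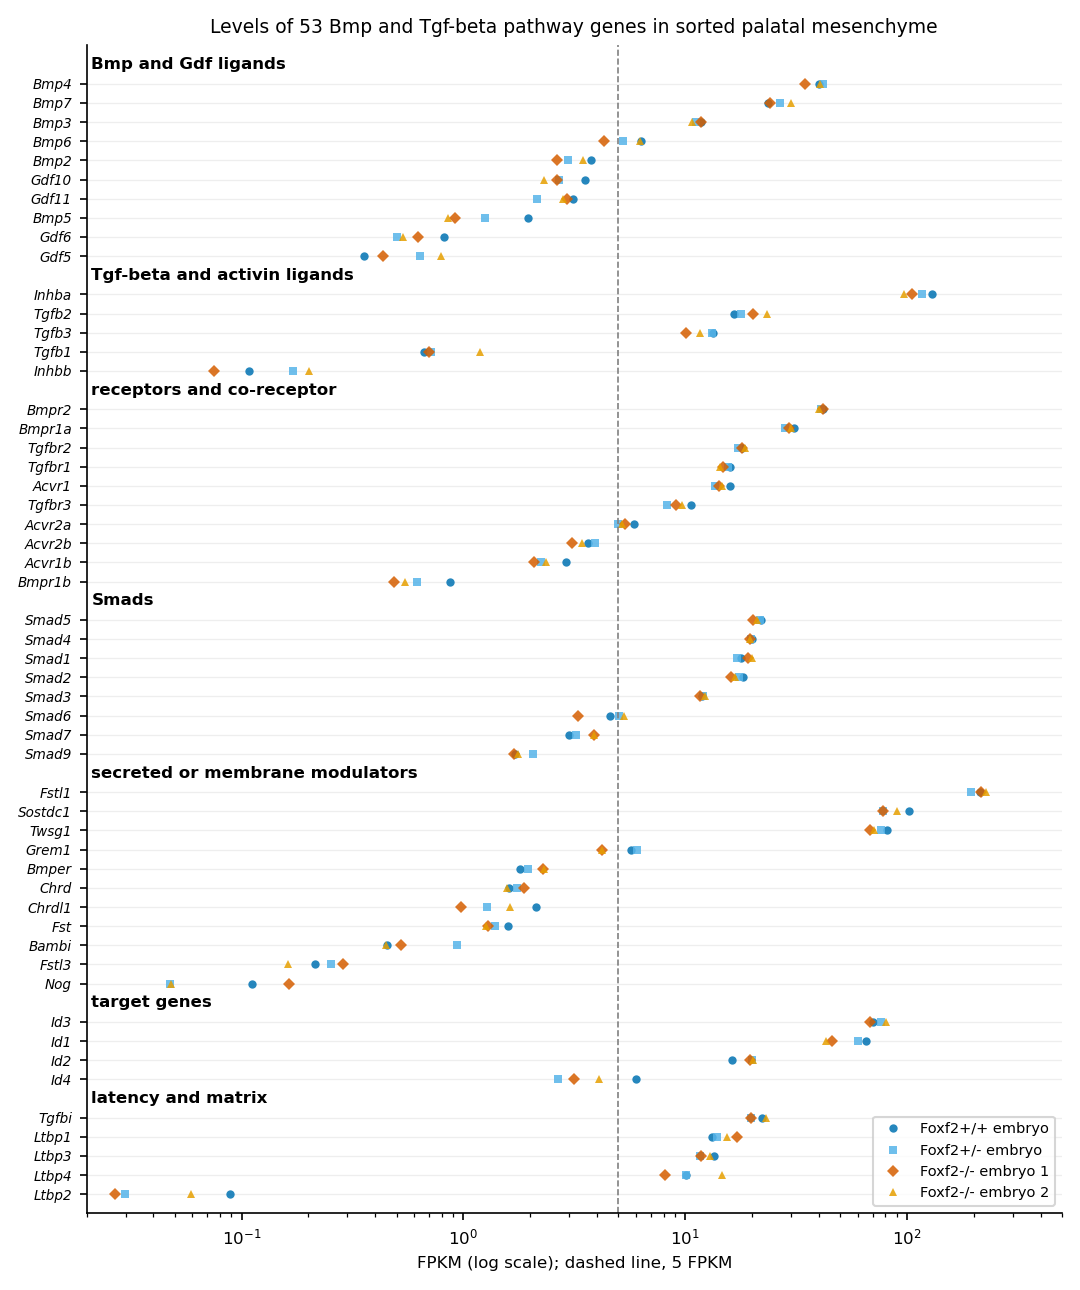
Level of each of the 53 members in each embryo, in FPKM on a log axis, grouped by role, with 1 symbol per embryo and a dashed line at the 5 FPKM filter. The symbols of the 4 embryos lie close together for most members, and the levels span from 0.0511 (Ltbp2) to 212 FPKM (Fstl1) as means over the embryos.

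No member differed significantly between Foxf2-/- and control embryos. By limma on log2(FPKM + 0.1), requiring a p-value under 0.05 after Benjamini-Hochberg adjustment and a difference over 1.5-fold, 0 of 32 members and 6 of 7399 genes (0.0811%) were called, and the lowest adjusted p-value of a member was 0.109. At an unadjusted p-value under 0.05 there were 6 members, Tgfb2 and Ltbp1 on the higher side and Id1, Grem1, Tgfb3 and Inhba on the lower side, beside 14.7% of all genes. No member differed by more than 1.5-fold from both controls, which 0.46% of genes did upwards and 0.203% downwards. An exact permutation test of 2 embryos against 2 cannot give a p-value below 0.33 for any single gene. For 27 of the 32 members the 95% limma interval lay within 1.5-fold in both directions, beside 87.6% of all genes, and the other 5 were Id1, Grem1, Smad6, Id4 and Ltbp4.

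The levels of the 2 groups did not overlap for 14 of the 32 members, which were Tgfb2, Ltbp1, Smad1, Fstl1 and Tgfbr2 on the higher side (5, background 8.66%) and Id1, Grem1, Tgfb3, Inhba, Twsg1, Smad2, Tgfbr1, Smad5 and Smad4 on the lower side (9, background 38.7%). The background leaned downwards because the median gene lay at -0.08 on the log2 scale in the FPKM as deposited, and the median of the 32 members was -0.02. When the libraries were scaled to a common median ratio, the all-gene median was -0.0015 and the member median 0.06, and the split became 9 higher and 6 lower (background 21.5% and 22.3%). All 5 members on the higher side and 6 of the 9 on the lower side kept their side under that scaling, whereas Tgfbr1 and Smad5 then overlapped and Smad4 changed sides. The median size of a member's log2 difference was 0.11, in comparison with 0.12 over all genes tested, and 22 of 32 members were within 0.15 of 0.

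**Figure D2:**
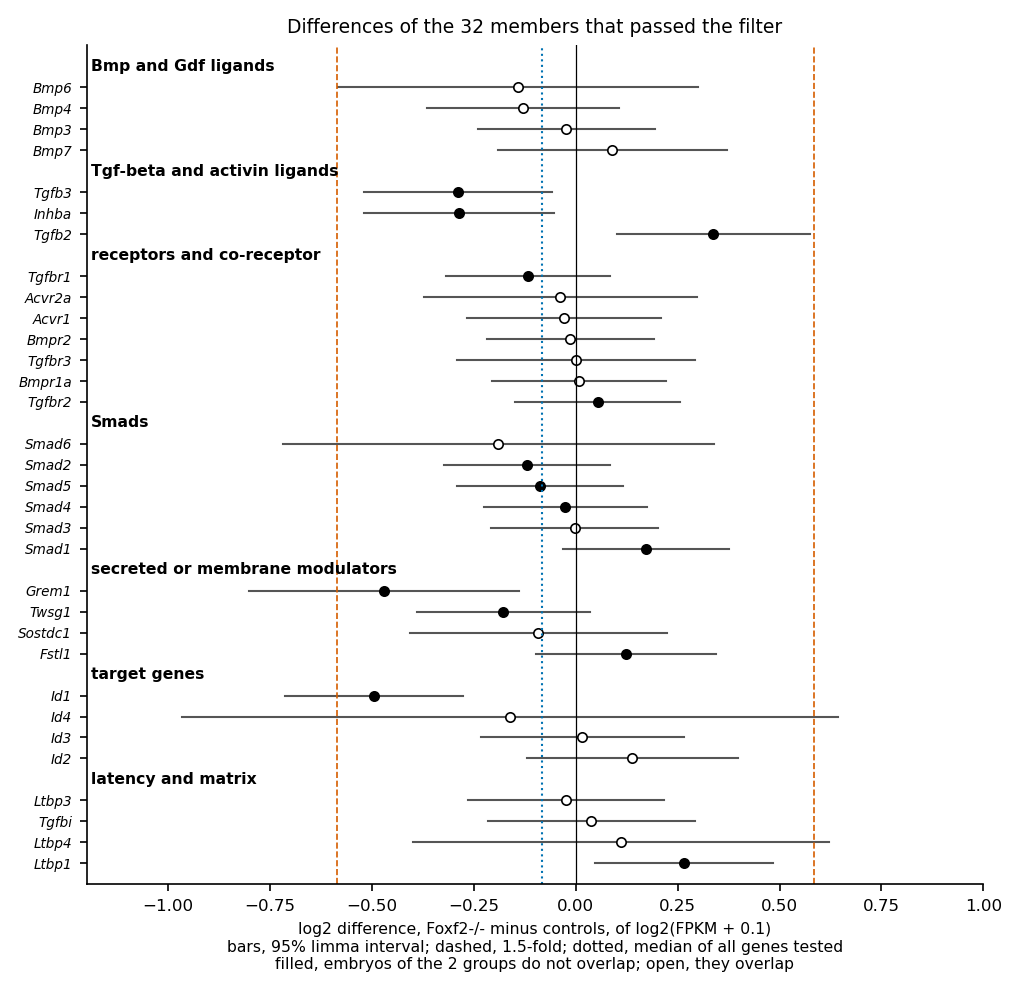
Log2 difference of log2(FPKM + 0.1), Foxf2-/- minus control embryos (2 in each group), for the 32 tested members by role, with 95% limma intervals, dashed lines at 1.5-fold and a dotted line at the median of all genes tested. Filled points mark members whose embryos do not overlap between groups, and they run from Id1 at -0.50 to Tgfb2 at 0.34.

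Among the Bmp and Gdf ligands, the levels overlapped between groups for all 4 tested members. Bmp4, which the palatal mesenchyme is known to express, had the highest level of the class, with 40.3 FPKM in the Foxf2+/+, 41.9 in the Foxf2+/-, and 34.8 and 40.5 in the Foxf2-/- embryos. Foxf2-/- embryo 1 was below both controls and embryo 2 between them, and the log2 difference was -0.13 (95% interval -0.37 to 0.11, limma adjusted p = 0.594). Bmp7 measured 23.7, 26.9, 24.1 and 29.8 FPKM in the same order, with 1 mutant between the controls and 1 above them, and Bmp3 lay between 10.8 and 11.8 FPKM. Bmp2, a ligand studied for its part in palatal shelf growth, had 3.76, 2.98, 2.66 and 3.47 FPKM and stayed under the filter, with the second mutant between the controls. Bmp5 was lower in both mutants, which had 0.918 and 0.848 FPKM, than in the Foxf2+/+ (1.95 FPKM) and Foxf2+/- (1.255 FPKM) embryos, a log2 difference of -0.76. In a limma fit over the 11571 genes that reached 1 FPKM, Bmp5 had an adjusted p-value of 0.341, and 46.7% of its exonic bases overlap an annotated antisense transcript, whose reads the library kit does not separate by strand.

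For each of the 3 tested Tgf-beta and activin ligands the groups did not overlap, with 1 higher (background 8.66%) and 2 lower (background 38.7%) in the mutants. Inhba, which encodes the subunit shared by activin A and inhibin A, was the most abundant ligand of all and lies at chr13:16106308-16119044 (mm9). Inhba measured 130.3 FPKM in the Foxf2+/+, 116 in the Foxf2+/-, and 106 and 96.5 in the Foxf2-/- embryos. Both mutants were below both controls, but the gap between the Foxf2+/- embryo and the nearer mutant was smaller than that between the controls, and the log2 difference of -0.29 (95% interval -0.52 to -0.05) had a limma adjusted p-value of 0.276.

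Tgfb2, at chr1:188447065-188529871 (mm9), had 16.6 and 17.8 FPKM in the Foxf2+/+ and Foxf2+/- embryos and 20.2 and 23.4 FPKM in the mutants. Both mutants were above both controls, with a log2 difference of 0.34 (95% interval 0.10 to 0.57, limma adjusted p = 0.240). Tgfb3 showed the opposite order, with 13.3 and 13.2 FPKM in the controls against 10.1 and 11.6 FPKM in the mutants (log2 difference -0.29, limma adjusted p = 0.272). The controls were nearly equal for Tgfb3, and both mutants were below them. The ratio of Tgfb2 to Tgfb3 within an embryo does not depend on scaling between libraries and was computed after the values had been seen. It was 1.247 in the Foxf2+/+, 1.352 in the Foxf2+/- and 2.01 in each Foxf2-/- embryo. With Tgfb2 higher and Tgfb3 lower in both mutants, this ratio had to separate the groups and adds no support. Among further ratios, Bmp4 to Bmp7 was 1.70 and 1.56 in the controls against 1.44 and 1.36 in the mutants. The groups were separate there too, although they overlapped for each of these genes alone. Tgfb1 was at 0.661, 0.718, 0.698 and 1.19 FPKM, with only the second mutant standing above the rest.

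**Figure D3:**
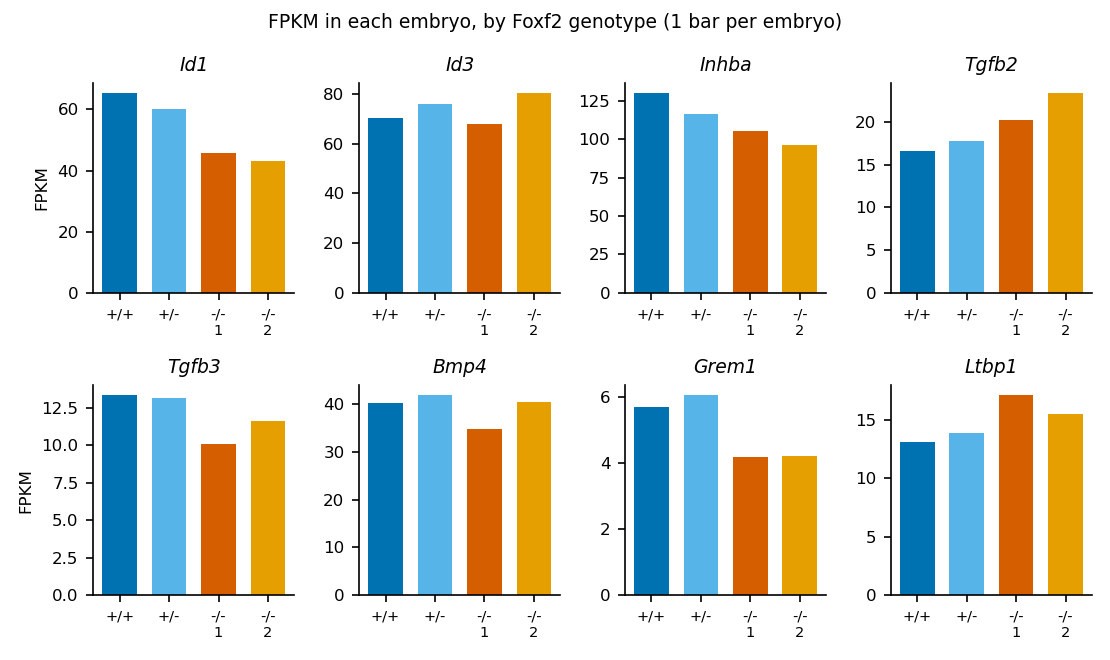
FPKM of 8 members in each embryo, 1 bar per embryo, with axes from 0. Id1, Inhba, Tgfb3 and Grem1 are lower and Tgfb2 and Ltbp1 higher in both Foxf2-/- embryos than in both controls, while the bars of Id3 and Bmp4 overlap between the groups.

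The log2 differences of the 7 tested receptors lay between -0.12 and 0.05, and every 95% interval was within 1.5-fold. Bmpr2, the type II Bmp receptor, had the highest level at 41.9, 40.9, 42.0 and 40.1 FPKM in the Foxf2+/+, Foxf2+/- and the 2 Foxf2-/- embryos, so that the mutants bracketed the controls. Bmpr1a, a type I Bmp receptor, measured 30.9, 28.2, 29.3 and 30.1 FPKM, with both mutants between the controls and a log2 difference of 0.01 (95% interval -0.21 to 0.22). For the Tgf-beta receptors, Tgfbr2 had 18.0 and 17.4 FPKM in the controls against 18.1 and 18.7 in the mutants, and Tgfbr1 had 16.0 and 15.6 FPKM against 14.8 and 14.3. Neither pair of groups overlapped, yet the gaps were at most 1 FPKM and the limma adjusted p-values were 0.812 and 0.572. Bmpr1b, the alternative type I Bmp receptor, was under 1 FPKM in every embryo at 0.871, 0.616, 0.484 and 0.545 FPKM, lower in both mutants by a log2 difference of -0.44.

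The log2 differences of the 6 tested Smad genes lay between -0.19 and 0.17. The highest was Smad5, which acts in the Bmp branch, with 22.0 and 21.8 FPKM in the controls against 20.2 and 21.1 FPKM in the mutants (log2 difference -0.09, 95% interval -0.29 to 0.12). Smad1, of the same branch, was on the other side, with 17.8 and 17.1 FPKM in the controls against 19.3 and 20.1 FPKM in the mutants (log2 difference 0.17, limma adjusted p = 0.412). Both mutants were below the controls for Smad5 and above them for Smad1. Smad4, the common partner, spanned only 19.6 to 20.1 FPKM over the 4 embryos, and Smad3 11.7 to 12.2 FPKM. The inhibitory Smads did not show a shared pattern. Smad6 had 4.58 and 5.02 FPKM in the controls against 3.30 and 5.32 in the mutants, which lay on both sides of the controls. Smad7, under the filter, had 2.99 and 3.23 FPKM in the controls against 3.88 in each mutant, above both controls (log2 difference 0.31, limma adjusted p = 0.366 in the fit over genes from 1 FPKM).

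Of the secreted modulators, Grem1 had the largest difference. Grem1, at chr2:113588832-113598805 (mm9), encodes Gremlin, which binds Bmp ligands and keeps them from their receptors. It measured 5.69 FPKM in the Foxf2+/+ and 6.06 FPKM in the Foxf2+/- embryo, in comparison with 4.20 and 4.23 FPKM in the Foxf2-/- embryos, so that both mutants were below both controls and nearly equal. Only the controls reached the 5 FPKM filter. Grem1 thus entered the test, and the counts of tested members, through the group where it was higher. The log2 difference was -0.47 (SE 0.15, 95% interval -0.80 to -0.14), which corresponds to 1.38-fold, with a limma adjusted p-value of 0.240. Its average read coverage was between 5.84 and 9.77, which is shallow in comparison with 63.8 to 96.8 for Id1.

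Fstl1, a secreted follistatin-like glycoprotein, had the highest level of all members with 213, 194, 216 and 227 FPKM, and both mutants were above both controls (log2 difference 0.12, limma adjusted p = 0.588). Twsg1, which binds Bmp ligands together with Chordin, had 81.3 and 76.0 FPKM in the controls against 67.9 and 71.2 in the mutants (log2 difference -0.18, limma adjusted p = 0.417). Sostdc1, an antagonist of Bmp and Wnt signals, had 102 and 78.3 FPKM in the controls against 78.1 and 90.3 in the mutants. The groups were separate for Twsg1 and overlapped for Sostdc1, where the controls were farther apart than the mutants. Bmper, a Bmp-binding protein, was under the filter with 1.80 and 1.96 FPKM in the controls against 2.28 and 2.30 in the mutants, both higher. Nog, Bambi and Fstl3 were under 1 FPKM in every embryo.

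Id1 had the largest difference of the tested members, and it was the only tested Id gene whose groups did not overlap in the FPKM as deposited. Id genes encode helix-loop-helix proteins that lack a DNA-binding region and are known as direct targets of Bmp signaling. Id1, at chr2:152562010-152563146 (mm9), measured 65.4 FPKM in the Foxf2+/+, 60.0 in the Foxf2+/-, and 45.9 and 43.0 in the Foxf2-/- embryos, with means of 62.7 ± 3.78 (SD, n = 2) in controls and 44.4 ± 2.04 (SD, n = 2) in mutants. Both mutants were well below both controls, and the gap between the groups exceeded the gaps within them. The log2 difference of -0.50 (SE 0.10, 95% interval -0.71 to -0.28) corresponds to 1.41-fold and had a limma adjusted p-value of 0.109. With a separate mean for each genotype, a fit in which the spread rests on the mutant embryos alone, the adjusted p-value was 0.0394, and over all settings it ranged from 0.0394 to 0.414.

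Id3, the most abundant of the 4, had 70.3 and 76.0 FPKM in the controls against 68.0 and 80.4 FPKM in the mutants, which lay on either side of the controls (log2 difference 0.02, 95% interval -0.23 to 0.27). Id2 had 16.3, 20.0, 19.6 and 20.3 FPKM, where the Foxf2+/+ embryo alone was low. Id4 had 6.03, 2.67, 3.14 and 4.10 FPKM, where the Foxf2+/+ embryo alone was high and both mutants lay between the controls. Within an embryo, the ratio of Id1 to Id3, computed after the values had been seen, was 0.930 in the Foxf2+/+, 0.790 in the Foxf2+/-, and 0.675 and 0.535 in the Foxf2-/- embryos. Both mutants were thus below both controls for Id1 also relative to Id3. The step between the controls was close in size to the step from the Foxf2+/- embryo to the first mutant. A ratio with separate groups says little by itself, since that of Bmp4 to Bmp7 was separate as well.

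Of the proteins that store Tgf-beta in the matrix, Ltbp1 was higher in both mutants. Ltbp1 binds the latent complex and anchors it to fibrils, and it had 13.2 and 13.9 FPKM in the controls against 17.1 and 15.5 in the mutants (log2 difference 0.27, 95% interval 0.05 to 0.48, limma adjusted p = 0.278). Tgfbi, a matrix protein named for its induction by Tgf-beta, had 22.2 and 19.7 FPKM in the controls against 19.8 and 23.2 FPKM in the mutants, and the groups overlapped. Ltbp3 overlapped as well, and for Ltbp4 the controls were both at 10.1 FPKM with the mutants at 8.12 and 14.7.

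Several members have more than 1 transcript entry, and the deposited values divide their FPKM between entries that share most of their sequence. For Ltbp1 the 6712-base entry had 10.0 and 10.5 FPKM in the controls against 13.4 and 14.9 in the mutants. The 5501-base entry, which starts further downstream, had 3.17, 3.38, 3.76 and 0.55 FPKM. The long entry was therefore higher in both mutants, and the short entry was low in the second mutant only, where it made up 3.53% of the gene's FPKM in comparison with 22.0% to 24.3% elsewhere. For Tgfbr2 the share of the 4788-base entry was 31.5% and 22.6% in the controls and 12.8% and 23.4% in the mutants, and for Ltbp4 the share of the 5102-base entry was 78.0% and 70.2% in the controls and 48.5% and 74.8% in the mutants. In both genes the first mutant had the lowest share and the second lay between the controls. These entries were chosen for description after their values had been seen, and the precision of the division is unknown.

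**Figure D4:**
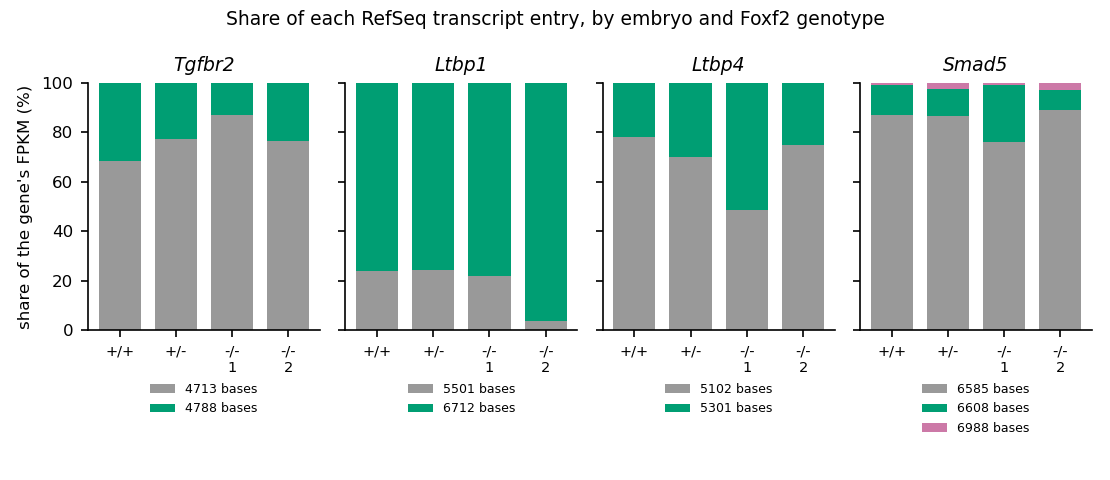
Share of a gene's FPKM, in percent, assigned to each RefSeq transcript entry in each embryo for 4 members with several entries, named by entry length in bases. The 5501-base entry of Ltbp1 takes 3.53% in Foxf2-/- embryo 2 and 22.0% to 24.3% in the other embryos, and the Foxf2-/- embryo 1 has the lowest share of the 4788-base entry of Tgfbr2 and of the 5102-base entry of Ltbp4.

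For the members between 1 and 5 FPKM, the precision was lower. Of these 13, both mutants were above both controls for 2 (Smad7 and Bmper, background 12.8%) and below them for 4 (Bmp5, Gdf10, Acvr2b and Fst, background 29.7%). In the limma fit from 1 FPKM, 0 of 45 members were called (background 0.0605%), 8 had an unadjusted p-value under 0.05 (background 13%), and the lowest adjusted p-value was 0.148, for Id1.

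A further 65 genes of the same pathways, listed beside the 53, had 26 that were tested. Limma called 0 of these 26, and 3 had an unadjusted p-value under 0.05 (background 14.7%), of which 2 were on the higher and 1 on the lower side. Both mutants were above both controls for 4 (background 8.66%) and below them for 8 (background 38.7%), and the corresponding counts after median-ratio scaling were 10 (background 21.5%) and 3 (background 22.3%). Of the 26 tested genes, 1 was over 1.5-fold above both controls (background 0.46%) and 0 were below them by as much (background 0.203%). The 1 was Lrrc32, which encodes a membrane protein that displays latent Tgf-beta on the cell surface. Lrrc32 had 3.84 and 3.79 FPKM in the controls against 7.19 and 7.48 in the mutants, with a log2 difference of 0.93 (95% interval 0.62 to 1.24). Only the mutants reached the 5 FPKM filter, so Lrrc32 entered the test through the group where it was higher. The controls were nearly equal and both mutants far above them, and the limma adjusted p-value was 0.0558, with a range of 0.00461 to 0.233 over the settings. Bmp1, a protease that cleaves Chordin and procollagens, had 29.0 and 24.8 FPKM in the controls against 20.4 and 23.7 in the mutants (log2 difference -0.29, limma adjusted p = 0.309), with both mutants lower. Below the filter, 2 of the 39 genes, Acvrl1 and Gdf9, were more than 1.5-fold below both controls. Without a filter, 639 of all 21352 genes met the 1.5-fold criterion in either direction, beside 49 of the 7399 tested. The share among genes below the filter alone was not computed. Acvrl1, a type I receptor best known from endothelium, had 1.68 and 1.66 FPKM in the controls against 0.782 and 1.12 FPKM in the mutants, and both mutants were lower. Atoh8, a helix-loop-helix transcription factor, had 2.54 and 2.03 FPKM in the controls against 1.73 and 1.42 FPKM in the mutants, also both lower. Gdf9 had 0.352 and 0.269 FPKM in the controls against 0.0407 and 0.215 FPKM in the mutants, levels too low to set the size of a difference. Amhr2 was lower and Htra1 higher in both mutants, with at most 1.09 FPKM in any embryo.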

How the data were processed

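RNA-seq values were obtained for FACS-isolated RFP+ palatal mesenchyme cells of 4 E13.5 littermates, each a separate embryo. The authors used Bowtie (0.12.7 in the submitters' processing notes) and Tophat to align single-end reads to mm9. They deposited, for each embryo, a table of 28107 RefSeq transcript entries with the FPKM and the average read coverage of each. The deposited FPKM tables are named for Cufflinks and have its form, and its version and options are not given in the sources used here. The study's own expression levels were RPKM from Strand NGS, which were not used here. Library preparation with a Nextera kit does not mark strand. Since the deposited coverage and FPKM hold no read numbers, the depth in reads is unknown.

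Entries of at least 200 bases were summed by symbol, and 10 genes with a failed estimate were left out. Entries under 200 bases (801 in each table) were removed because FPKM of entries near the read length is unstable. Genes reaching 5 FPKM in any embryo were tested as log2(FPKM + 0.1), a scale that understates differences of low genes, with limma 3.58.1 (variance trend, R 4.3.3) and Benjamini-Hochberg adjustment over 7399 genes. Foxf2-/- embryos were compared with both controls together, at an adjusted p-value of 0.05 and 1.5-fold. Further criteria were a difference over 1.5-fold against each control, and no overlap between groups. The script was tested on simulated data. Python 3.11.15, pandas 2.3.3, numpy 2.4.6 and matplotlib 3.10.9 were used.

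The members, the lists of other pathway genes and markers, and the tests were chosen with earlier results of these data known. Values in every embryo were to be given for members that met a criterion of difference, for members without overlap and with a difference over 1.25-fold, for the highest member of each role, and for Bmp2, Bmp4 and Bmpr1a. Further members were described after their values had been seen. Of the other pathway genes, 1 that met the naming rule is not reported here. Alternatives varied the pseudocount, filter, scaling, entries, embryos, fold threshold and limma design. Positions are those of the files (mm9), and promoter sequences are from RefSeq (GRCm38.p6).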

Additional observations from a re-analysis of the deposited data

How the results depend on the processing

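Limma called 0 members under each alternative that kept all embryos, with 6 to 8 members at an unadjusted p-value under 0.05. The share over all genes at that p-value was computed only for the main fit (14.7%) and the fit from 1 FPKM (13%). The other counts are therefore not a result about the members. Over all genes tested, the number of limma calls was 6 and ranged from 0 without a filter to 122 without the Foxf2+/- embryo, and the number over 1.5-fold against both controls was 49 and ranged from 40 with a pseudocount of 1 to 639 without a filter. The count of members without overlap, 14, became 22 to 24 when 1 embryo was left out (22 without the Foxf2+/+, 24 without the Foxf2+/-, and 23 without either Foxf2-/- embryo), as comparing fewer embryos makes overlap rarer. The share over all genes was not computed for these counts, so they are not a result about the members. Members over 1.5-fold against every control that was kept numbered 0 to 1 when 1 embryo was left out. The 1 was Id4 without the Foxf2+/- embryo, where the Foxf2+/+ embryo was the only control. The log2 difference of Id4 was -0.73 against the Foxf2+/+ and 0.41 against the Foxf2+/- embryo. With all embryos, 2 members (Grem1 and Id1) passed the lower threshold of 0.32 on the log2 scale against both controls. The share over all genes at that threshold was not computed. Among named members, 5 with a log2 difference near 0 or under the filter changed sign when 1 embryo was left out. The ranges were -0.32 to 0.052 for Bmp2 (0.028 without the Foxf2+/+ embryo and 0.052 without Foxf2-/- embryo 1), -0.056 to 0.074 for Bmpr1a, -0.047 to 0.021 for Bmpr2, -0.10 to 0.14 for Id3 and -0.077 to 0.15 for Tgfbi, and Bmpr2 was also at 0.068 under median-ratio scaling. The cause of these sign changes was not tested. Id1 ranged from -0.56 to -0.41, Grem1 from -0.51 to -0.39, Tgfb2 from 0.23 to 0.44 and Inhba from -0.37 to -0.20 over the alternatives run for single members, without a change of sign. A pseudocount of 1 moved Bmp5 to -0.45 and Bmpr1b to -0.20 by construction, since both are at low FPKM. Leaving out 1 embryo gave -1.06 to -0.46 for Bmp5, -0.66 to -0.22 for Bmpr1b and -0.24 to -0.021 for Bmp4. With 1 embryo left out, the lone embryo of an arm is assumed to vary like the other group. No paired analysis was possible because the controls carry no replicate numbers. Each control genotype had 1 embryo, and 11 members share exonic bases with an annotated gene on the opposite strand, over 10 percent for Bmp5, Fstl3, Gdf5 and Id4.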
